A study of Danio rerio with 4 samples.

Results

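The genes described here are 10 fibroblast matrix and mesenchymal identity genes, out of 32105 Ensembl gene IDs with counts. They were taken by zebrafish symbol, as every ID named dcn, lum, fbln1, dpt, sparc, twist1, prrx1 or tcf21, with or without a copy suffix. The names themselves were chosen with earlier results of these data known. The 8 names gave 10 IDs because twist1 and prrx1 each have a pair of copies. Both prrx1 copies carry the symbol PRRX1 in the name table, so they are told apart by their IDs, ENSDARG00000033971 and ENSDARG00000042027.

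All 4 libraries belong to a single group of adult zebrafish labelled wildtype that carry a pdgfr beta egfp transgene, and there is no control group. For each library, EGFP-positive cells were sorted from 6 pooled brains after digestion with Liberase, and their RNA was amplified and sequenced. The sort took cells in which the pdgfrb transgene was active, and in mouse brain PDGFRB is known from fibroblasts as well as pericytes. The design text mentions triplicates, and all 4 libraries were used. The titles and source names call the cells pericytes, whereas a cell type tag reads muLEC, the name used for mural lymphatic endothelial cells.

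Fibroblasts of the vessel wall and of the meninges lay down the collagen-rich matrix around brain vessels. Decorin and lumican are small leucine-rich proteoglycans that bind collagen fibrils, and fibulin-1, dermatopontin and SPARC are secreted proteins that link or organise matrix. TWIST1, PRRX1 and TCF21 are transcription factors of embryonic mesenchyme, the tissue from which fibroblasts arise.

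The matrix genes DCN and SPARC supplied most of the reads of the set, while the levels of the other 8 genes ran from a steady 42.4 CPM for FBLN1 down to almost no reads for TCF21. Levels are in CPM, the reads of a gene out of every 1000000 reads of its library, after scaling between libraries by TMM, an edgeR method. The table's columns carry no sample number, and the names B1 to B4 used below are theirs. Total counts ran from 33270774 to 40441253, and 3 counts corresponded to 0.0751 to 0.0879 CPM, which is a floor for counting error alone. Of all counts, the 10 genes together took 0.0564% (B1), 0.169% (B2), 0.187% (B3) and 0.101% (B4). Between 86.5% and 93.8% of these reads came from DCN and SPARC. In RNA from a sorted population, fewer cells of a type and less RNA per cell cannot be told apart.

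**Figure D1:**
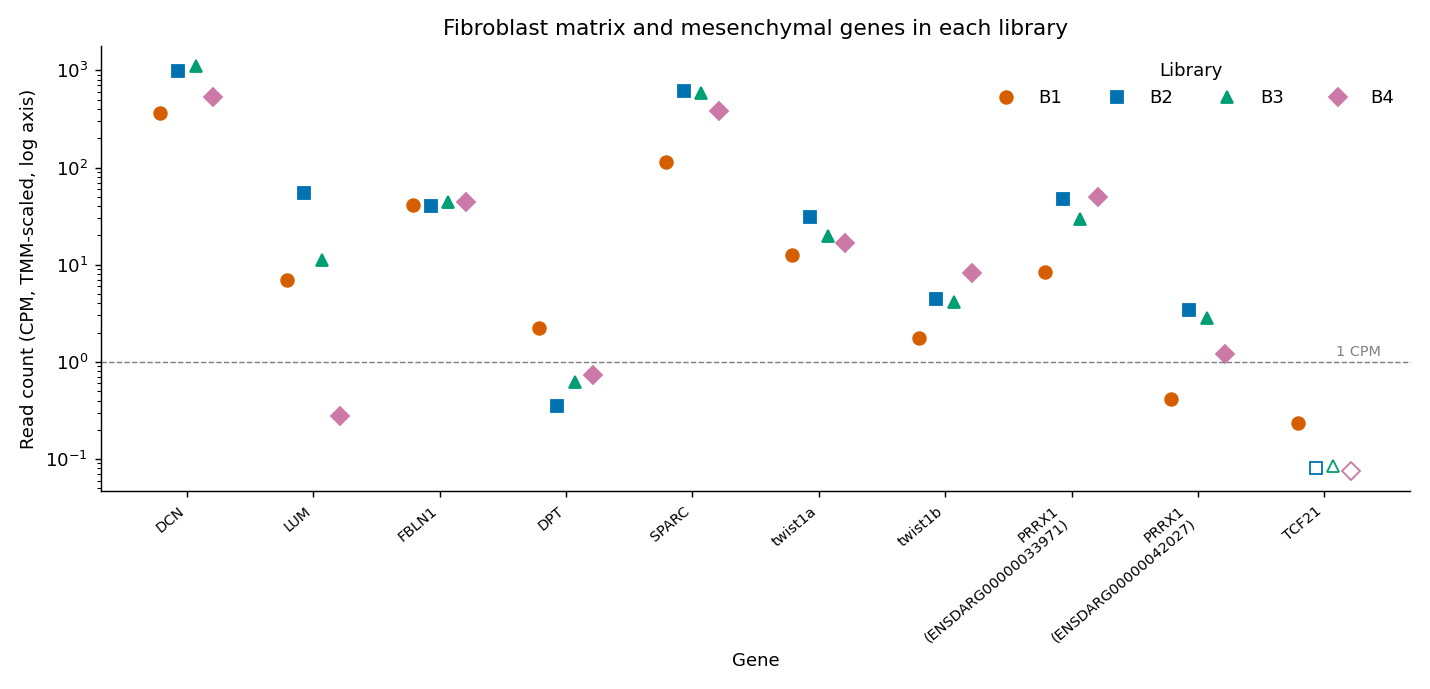
Read count of each of the 10 genes in CPM on a log axis, with 1 marker per library. Open markers of TCF21 stand at the floor of 3 counts for libraries with fewer reads than that, and the markers of FBLN1 lie between 39.8 and 44.5 CPM while those of LUM run from 0.275 to 54.7 CPM.

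Of the 10 genes, 8 reached 1 CPM in at least 2 libraries and were tested. Their read level was compared with that of the median tested gene, 12.6 CPM, by edgeR's quasi-likelihood test over 17283 genes with Benjamini-Hochberg adjustment at 0.05. DCN, SPARC, FBLN1, twist1a and PRRX1 (ENSDARG00000033971) lay above it, twist1b and PRRX1 (ENSDARG00000042027) below it, and LUM on neither side. That is 5 of 8 above, where 36.8% of all tested genes were, and 2 of 8 below, where 33.2% were. Those above numbered 3 without B2 and 3 without B4, and those below numbered 1 without B2 and 1 without B3. No transcript lengths were used here, so levels of different genes are compared as reads, not as molecules. Nothing in the labels separates the pools beyond the 6 brains in each. The p-values thus rest on how far these 4 pools differ, and part of that may be technical. They do not rest on each gene's own spread alone, because edgeR shares its estimate of spread between genes. For FBLN1 the SE of the level was 0.19 log2 units, while its SD over the libraries was 0.07.

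The proteoglycan gene DCN was the most abundant gene of the set. DCN stood at 362 CPM in B1, 992 CPM in B2, 1103 CPM in B3 and 525 CPM in B4. All 4 libraries were far above the median tested gene, with B1 lowest and B3 highest. Its mean was 746 ± 358 CPM (SD, n = 4), 5.88 ± 0.32 (SE) log2 units above the median tested gene (edgeR adjusted p = 1.60e-07). Of the 17283 tested genes, 0.700% had a mean CPM at least as high.

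Among the 8 tested genes, the proteoglycan gene LUM varied most between libraries. LUM stood at 7.0 CPM in B1, 54.7 CPM in B2, 11.3 CPM in B3 and 0.275 CPM in B4, from 239, 2019, 403 and 11 reads. B2 held most of its reads and B4 was close to none. The highest library was 199 times the lowest, a ratio that 0.469% of tested genes reached. The mean of 18.3 ± 24.7 CPM (SD, n = 4) was 6.18 CPM without B2. Its level did not pass the test, at a log2 difference of 0.54 ± 0.86 (SE) from the median tested gene (edgeR adjusted p = 0.57). That difference was -1.12 without B2 and -0.98 by limma-voom, also without passing. It was 2.55 and passed where no filter on low counts was set, which lowers the median gene to 3.14 CPM (adjusted p of 0.00455 to 0.597 over the alternatives).

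Both proteoglycan genes had reads in every library, but in unlike proportions. DCN had 51.7 times the reads of LUM in B1, 18.2 times as many in B2, 98.0 times as many in B3 and 1908 times as many in B4, where LUM had 11 reads. A ratio within a library is free of the scaling between libraries. It was 105 times larger in B4 than in B2, while DCN itself varied 3.05-fold.

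FBLN1, the gene of the matrix and basement membrane glycoprotein fibulin-1, was the steadiest of the set. FBLN1 stood at 41.3 CPM in B1, 39.8 CPM in B2, 43.9 CPM in B3 and 44.5 CPM in B4. The 4 libraries were nearly level, and 99.5% of tested genes had a highest to lowest ratio at least as large as its 1.12. Its coefficient of variation was 5.17%, where counting error alone would give about 2.53%. The coefficient was 7.98% with scaling by total count only and 4.27% with DESeq2's size factors. Among the 4482 tested genes with a mean of 21.2 to 84.7 CPM, 0.892% had a ratio as low as that of FBLN1 or lower. Its mean of 42.4 ± 2.19 CPM (SD, n = 4) lay 1.75 ± 0.19 (SE) log2 units above the median tested gene (edgeR adjusted p = 9.26e-05).

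SPARC, the gene of a secreted collagen-binding protein, came next to DCN in reads. SPARC stood at 113 CPM in B1, 610 CPM in B2, 585 CPM in B3 and 379 CPM in B4. B1 was lowest, and the next library was 3.34 times as high, while the other 3 lay within 1.61-fold of each other. The mean of 422 ± 230 CPM (SD, n = 4) was 5.06 ± 0.39 (SE) log2 units above the median tested gene (edgeR adjusted p = 1.37e-06). The reads of DCN were 3.2 times those of SPARC in B1, 1.63 times those in B2, 1.89 times those in B3 and 1.39 times those in B4. DCN was thus ahead in 4 of 4 libraries, by a log2 difference of 0.94 ± 0.52 (SD).

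DPT, the gene of dermatopontin, a protein that binds decorin, was scarce. DPT stood at 2.23 CPM in B1, 0.352 CPM in B2, 0.615 CPM in B3 and 0.726 CPM in B4, from 76, 13, 22 and 29 reads. It passed 1 CPM in B1 alone and was therefore not tested. Its mean of 0.980 CPM was 0.564 CPM without B1. B1 was thus its highest library, whereas DCN and SPARC were lowest there.

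**Figure D2:**
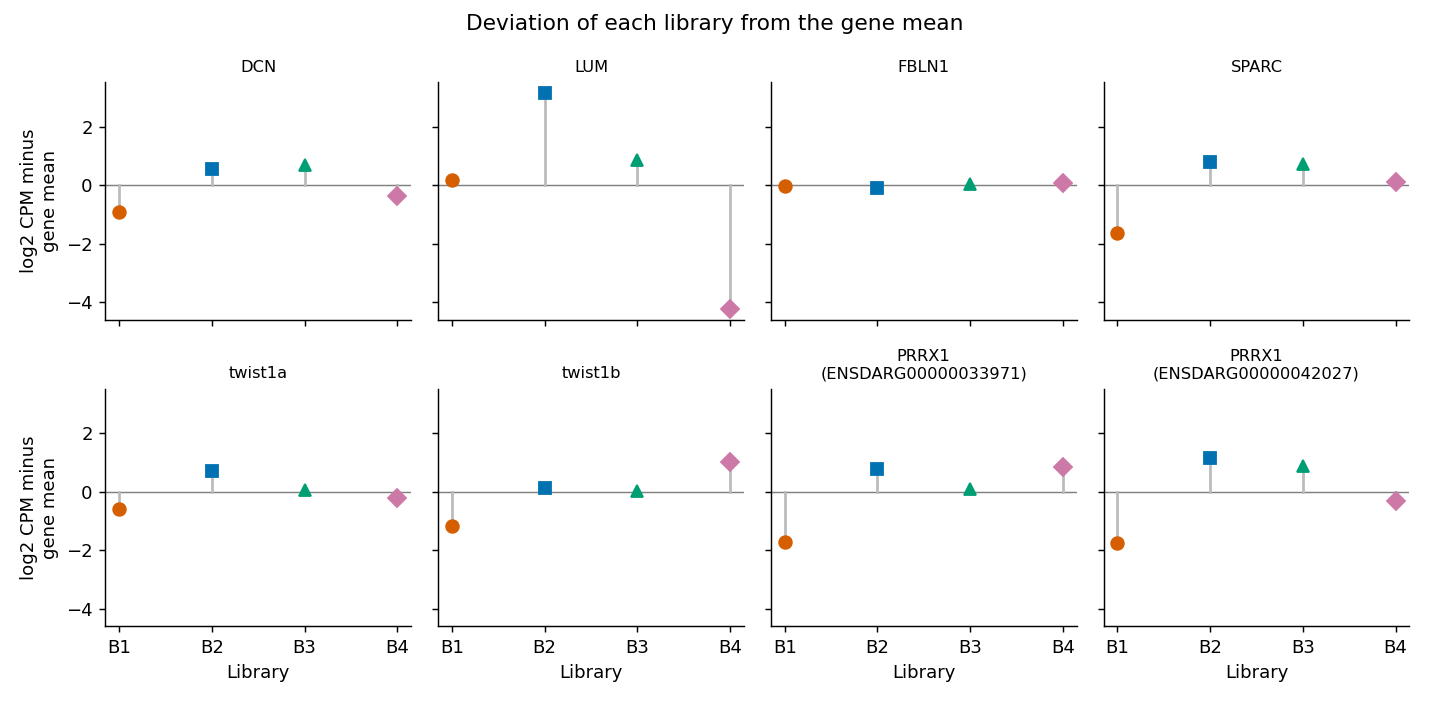
Deviation of each library from the gene's mean in log2 CPM (prior count of 2) for the 8 tested genes, with 1 marker per library joined to the zero line. FBLN1 stays near zero in all 4 libraries, LUM is high in B2 and low in B4, and the lowest library is B1 for DCN, SPARC and the 4 twist1 and PRRX1 copies.

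Among the transcription factor genes, the copies of twist1, a basic helix-loop-helix factor gene, were both read but at unequal levels. The copy twist1a stood at 12.7 CPM in B1, 31.1 CPM in B2, 19.7 CPM in B3 and 16.5 CPM in B4. The copy twist1b stood at 1.76 CPM in B1, 4.39 CPM in B2, 4.11 CPM in B3 and 8.13 CPM in B4. Both were lowest in B1, but twist1a was highest in B2 and twist1b in B4, and their ranges did not overlap. The reads of twist1a were 7.22 times those of twist1b in B1, 7.09 times those in B2, 4.80 times those in B3 and 2.03 times those in B4. The count of reads from copies with similar sequence is uncertain where the counting could split them.

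The mean of twist1a, 20.00 ± 7.93 CPM (SD, n = 4), lay 0.66 ± 0.27 (SE) log2 units above the median tested gene (edgeR adjusted p = 0.0466). This call was lost without B2 (0.29), without B3 (0.58), without B4 (0.66) and with a filter of 1 CPM in all 4 libraries (0.33). Over the alternatives its adjusted p lay between 4.78e-06 and 0.401. The mean of twist1b, 4.60 ± 2.64 CPM (SD, n = 4), lay below by a log2 difference of -1.46 ± 0.37 (SE), with an edgeR adjusted p of 0.0217. That call was lost without B2 (-1.51) and without B3 (-1.50), and the difference turned to 0.55, without passing, where no filter on low counts was set (adjusted p of 0.000602 to 0.17).

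The copies of prrx1, a homeobox factor gene of mesenchyme, differed more. PRRX1 (ENSDARG00000033971) stood at 8.35 CPM in B1, 47.9 CPM in B2, 29.8 CPM in B3 and 49.9 CPM in B4. PRRX1 (ENSDARG00000042027) stood at 0.410 CPM in B1, 3.44 CPM in B2, 2.85 CPM in B3 and 1.2 CPM in B4. Both were lowest in B1, and every library of the first copy exceeded every library of the second. The first copy had 20.4 times the reads of the second in B1, 13.9 times as many in B2, 10.5 times as many in B3 and 41.5 times as many in B4.

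The mean of the first copy, PRRX1 (ENSDARG00000033971), was 34.0 ± 19.3 CPM (SD, n = 4), 1.43 ± 0.40 (SE) log2 units above the median tested gene (edgeR adjusted p = 0.00862). Without B2 (1.14) and without B4 (1.1) it no longer passed, and over the alternatives its adjusted p lay between 4.55e-06 and 0.0679. The mean of the second, PRRX1 (ENSDARG00000042027), was 1.98 ± 1.41 CPM (SD, n = 4), at a log2 difference of -2.68 ± 0.50 (SE) from the median tested gene (edgeR adjusted p = 0.00924). With no filter on low counts the difference was -0.67 and did not pass (adjusted p of 7.13e-07 to 0.266 over the alternatives).

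TCF21, a basic helix-loop-helix factor gene known from the mesenchyme of heart and kidney, was close to absent from the reads. B1 held 8 reads of it, B2 and B3 held 0 and B4 held 1. The 8 reads of B1 are 0.234 CPM, and 0 reads allow up to 0.0812 CPM in B2 and 0.0838 CPM in B3. No level of TCF21 was detectable at this depth outside B1, and it was not tested.

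By mean CPM the genes ran from DCN through SPARC, FBLN1, PRRX1 (ENSDARG00000033971), twist1a, LUM, twist1b, PRRX1 (ENSDARG00000042027) and DPT to TCF21. For 5 of the 9 neighbouring pairs in this order the mean log2 difference within libraries was smaller than its SD. These were the pairs from FBLN1 down to twist1b, and PRRX1 (ENSDARG00000042027) with DPT. SPARC exceeded FBLN1 in 4 of 4 libraries by 3.05 ± 1.12 log2 units (SD), and twist1b exceeded PRRX1 (ENSDARG00000042027) in 4 of 4 by 1.38 ± 1.14. The smallest p that an exact two-sided sign-flip test of 4 libraries can give (0.13 when rounded) was reached by 4 pairs, and it became 0.281 after Benjamini-Hochberg adjustment over the 9 pairs. The order by the authors' deposited YuGene scores, which run from 0 to 1 within a library, had the same rank for 10 of 10 genes.

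Library B1 was the lowest for 6 of the 8 tested genes, and 43.7% of all tested genes were lowest there. The highest library was B2 for 4 genes, B4 for 3 and B3 for 1, where 24.8%, 19.2% and 20% of all tested genes were highest. B1 was highest for 0 of the 8 genes, and for 36.0% of all tested genes. The highest library was at least 3 times the lowest for 6 of the 8 genes, and for 38.8% of all tested genes. FBLN1 and twist1a were the exceptions, at 1.12 and 2.45. In the deposited YuGene scores the highest library was the same for 8 of the 10 genes and the lowest for 8. The lowest library of TCF21 was counted as different, though B2 and B3 tied at 0 reads. In those scores FBLN1 was highest in B3, at 0.685, and lowest in B1, at 0.635.

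PDGFRB, whose regulatory sequence drove the sort, had an order of libraries that no gene of the set shared. PDGFRB stood at 219 CPM in B1, 76.0 CPM in B2, 121 CPM in B3 and 46.0 CPM in B4. It was highest in B1, the library in which 6 of the 8 tested genes were lowest, and in which the scarce genes DPT and TCF21 were highest too. DCN had more reads than PDGFRB in 4 of 4 libraries, by 0.73 log2 units (B1), 3.71 (B2), 3.19 (B3) and 3.51 (B4). SPARC had more in 3 of 4, with a log2 difference of -0.95 in B1 and of 2.27 to 3.04 in the others.

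FBLN1, with a log2 difference of -1.21 ± 0.99 (SD), and twist1a, with -2.37 ± 1.30, had fewer reads than PDGFRB in 4 of 4 libraries, as did LUM, DPT, twist1b, PRRX1 (ENSDARG00000042027) and TCF21. PRRX1 (ENSDARG00000033971) had fewer in 3 of 4, from -4.70 in B1 to 0.12 in B4. The level of PDGFRB itself was 3.19 log2 units above that of the median tested gene. Fewer reads than PDGFRB are thus not particular to the set, and their share over all tested genes was not computed. In the exact two-sided sign-flip test the lowest p was again 0.13 when rounded, or 0.156 adjusted over the 10 genes. Division by PDGFRB widened the spread over libraries for 7 of the 8 tested genes. PDGFRB itself varied 4.75-fold between libraries, where the median tested gene varied 2.52-fold. The share of all tested genes whose spread such division would widen was not computed, so whether the count is particular to the set was not tested. For DCN the SD was 1.39 log2 units after division and 0.76 alone, and for LUM, the exception among these 8, it was 2.80 after division and 3.09 alone. For the untested DPT, too, it was smaller after division, at 0.80 and 1.05 alone, as it was for TCF21, at 0.87 and 1.14 alone, with at most 8 reads a library.

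**Figure D3:**
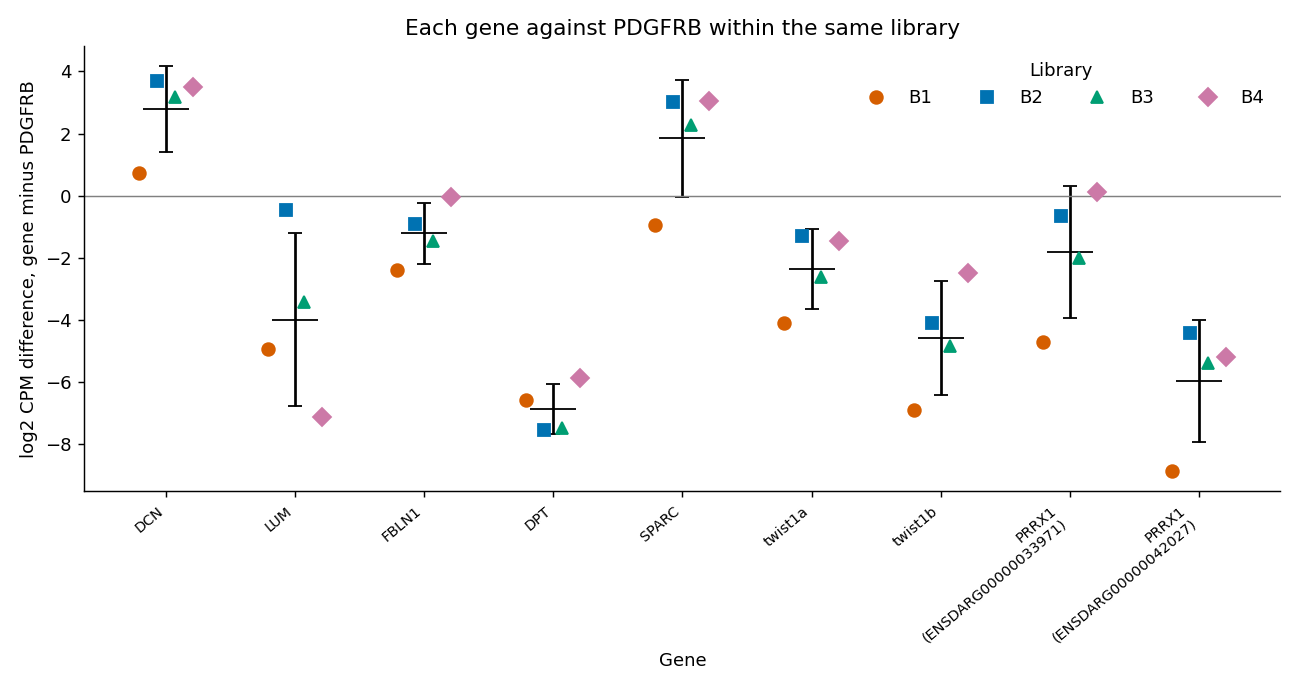
Log2 CPM difference of each gene from PDGFRB within each library (prior count of 2), with markers for libraries and black bars for the mean ± SD of 4 libraries, for the 9 genes other than TCF21, which had 0 reads in 2 libraries. DCN lies above the zero line in all 4 libraries, and B1 is the lowest marker for DCN, FBLN1, SPARC and the twist1 and PRRX1 copies.

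Genes of the same families and of fibroblasts were read unevenly. Beside the counts of each list stand the shares over all tested genes, 36.8% above the median tested gene and 33.2% below. The small leucine-rich proteoglycan list, relatives of DCN and LUM, had 15 IDs, of which 9 were tested, 2 with a level above that of the median tested gene and 2 below. Without B2, and likewise without B3, it had 1 above and 1 below, and without B4 it had 1 below. BGN (ENSDARG00000002945), the gene of biglycan, stood at 68.1 CPM in B1, 246 CPM in B2, 160 CPM in B3 and 208 CPM in B4, and like DCN was lowest in B1. The gene epyc, of epiphycan, was 40.7 ± 60.3 CPM and carried by B2, at 10.9 CPM without it, where its level did not pass. With DESeq2's size factors or limma-voom the list had 1 gene above in place of 2. The second BGN copy (ENSDARG00000017884) averaged 25.2 ± 39.4 CPM, or 5.63 CPM with B3 left out, on neither side, and PODN, of podocan, lay below at 2.04 ± 0.97 CPM.

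The fibulin family had 7 tested IDs, 1 of them above and 4 below, where 36.8% and 33.2% of all tested genes were. Those below numbered 2 without B2, 1 without B3 and 1 without B4, and those above numbered 3 without B1. EFEMP2 (ENSDARG00000094324), of fibulin-4, was above at 62.2 ± 23.4 CPM, while EFEMP1, of fibulin-3, was below at 1.25 ± 0.20 CPM. The second EFEMP2 copy (ENSDARG00000020811), at 17.9 ± 6.06 CPM, and fbln5, of the elastic fibre protein fibulin-5, at 18.1 ± 9.92 CPM, were on neither side. In the SPARC family 4 of 8 tested IDs were above and 1 was below. The 3 highest were FSTL1 (ENSDARG00000039576), of a follistatin-like secreted protein, at 247 ± 50.3 CPM, spock2, of a brain proteoglycan, at 227 ± 57.3 CPM, and SMOC2, of a calcium-binding matrix protein, at 151 ± 14.3 CPM. SMOC1 lay below at 3.2 ± 1.23 CPM.

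Fibril collagens and fibril assembly had 31 tested IDs, 14 above and 5 below, where 36.8% and 33.2% of all tested genes were. COL1A2 at 577 ± 669 CPM, col1a1a at 508 ± 586 CPM and COL1A1 at 471 ± 526 CPM, genes of the chains of type I collagen, led them, and COL12A1 (ENSDARG00000019601) lay below at 2.31 ± 0.51 CPM. All 3 leading genes were highest in B3, and their means were 246, 219 and 218 CPM without it. DCN followed these collagens only in part, with 1.02 times the reads of COL1A2 in B1, 4.04 times as many in B2, 0.702 times as many in B3 and 3.86 times as many in B4.

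Mesenchymal transcription factors had 20 tested IDs, 7 above and 5 below, where 36.8% and 33.2% of all tested genes were. They had 3 below when B2 was left out and 2 below when B3 was. The zinc finger factor genes zeb2a, at 167 ± 65.4 CPM, and ZEB1, at 53.1 ± 8.0 CPM, and the nuclear receptor gene NR2F2, at 86.8 ± 12.4 CPM, were the highest, and FOXF1 lay below at 0.925 ± 0.581 CPM. Of the other twist genes, twist2 averaged 1.16 CPM and twist3 0.667 CPM, and neither passed the filter. Among 16 tested genes of other fibroblast and meningeal lists 10 lay above and 2 below, or 1 below when any library was left out. The chemokine gene CXCL12 led them at 413 ± 184 CPM, followed by the GABA transporter gene SLC6A13 at 176 ± 98.3 CPM and the secreted factor gene serpinf1 at 168 ± 97.0 CPM. The second GSN copy (ENSDARG00000045262), of the actin-binding protein gelsolin, lay below at 0.985 ± 0.279 CPM.

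**Figure D4:**
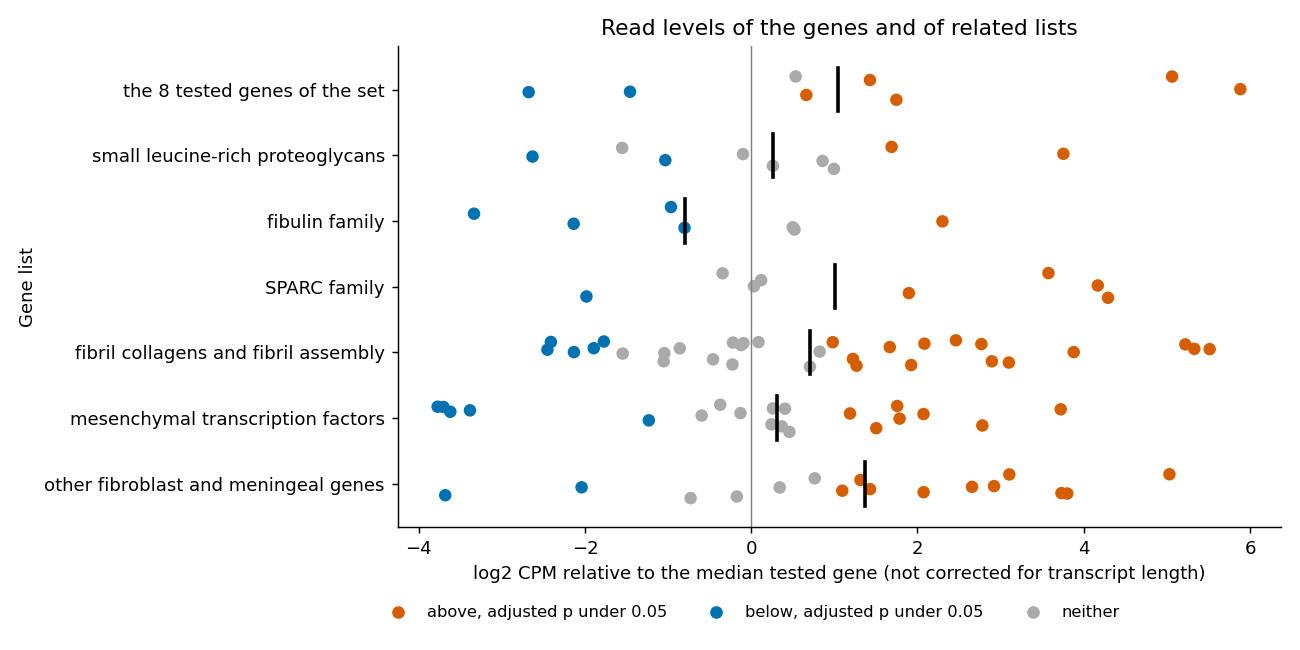
Read level of each tested gene relative to the median tested gene in log2 CPM, not corrected for transcript length, for the 8 tested genes of the set and for the related lists. Orange and blue mark genes above and below at an edgeR adjusted p under 0.05, grey the rest, and black bars the list medians, which run from -0.80 for the fibulin family to 1.37 for other fibroblast and meningeal genes, with 1.05 for the set and 0 for all tested genes.

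Markers of other cells moved between the libraries too, and their part in the levels of the set was not tested. The summed level of the 10 genes was 550 CPM in B1, 1785 CPM in B2, 1801 CPM in B3 and 1026 CPM in B4. The other fibroblast and meningeal list had the same low library, at 553 CPM in B1 and 1407 to 1547 CPM in the others, and so had the small leucine-rich proteoglycan list, at 99.97 CPM against 270 to 508 CPM. The sums of the fibulin and SPARC families were also lowest in B1. Gene by gene, 11 of 16 tested IDs of the other fibroblast list were lowest in B1 and 3 highest. For the proteoglycan list these counts were 7 and 0 of 9, for the fibulin family 3 and 2 of 7, and for the SPARC family 4 and 0 of 8. Of all tested genes, 43.7% were lowest there and 36.0% highest. Related lists whose sums went otherwise were the fibril collagens, lowest in B4 at 1041 CPM with 1934 CPM in B1, and the mesenchymal factors, highest in B1 at 707 CPM. Gene by gene the mesenchymal factors were split, with 7 of 20 tested IDs highest in B1 and 9 lowest there. Over all tested genes these shares were 36.0% and 43.7%. The radial glia list, like the set, was lowest in B1, at 26529 CPM against 46601 to 51853 CPM in the others. Of its 12 tested IDs 10 were lowest there, as were 43.7% of all tested genes. It was led by GLUL (ENSDARG00000099776) at 16803 ± 7006 CPM and SLC1A2 (ENSDARG00000102453) at 9337 ± 2322 CPM. That SLC1A2 copy was not lowest in B1, with 10577 CPM there and 6563 CPM in B2, and SOX2 was highest in B1, at 1453 CPM.

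The neuron list was higher in B1, with 11 of 11 tested IDs highest there and a sum of 1920 CPM against 233 to 402 CPM. Of all tested genes, 36.0% were highest in B1. Its leading genes were tubb5 at 246 ± 342 CPM and NEUROD1 at 146 ± 232 CPM, which were 75.6 and 30.4 CPM without B1. The endothelium list was 326 CPM in B1 against 48.4 to 83.5 CPM, carried by CLDN5 (ENSDARG00000043716) at 240 CPM in B1 and at most 20.3 CPM elsewhere. The endothelial genes kdrl and cdh5 were 22.9 ± 18.8 and 3.63 ± 2.05 CPM, and kdrl was 13.9 CPM without B1.

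The pericyte list summed to 847 to 2133 CPM, highest in B1, where KCNE4 was 955 CPM, while rgs5b was 26.8 CPM in B1 and 178 to 680 CPM elsewhere. Its markers were split, with 5 of 12 tested IDs highest in B1 and 6 lowest there. Over all tested genes these shares were 36.0% and 43.7%. The smooth muscle list summed to 196 to 379 CPM, led by TAGLN (ENSDARG00000033466) at 109 ± 58.2 CPM and acta2 at 58.9 ± 35.7 CPM. Its sum was nearly the same in B1, at 196 CPM, and in B4, at 201 CPM. Of the 7 tested smooth muscle IDs 3 were lowest in B1 and 2 highest there, where 43.7% and 36.0% of all tested genes were. The lymphatic and muLEC list summed to 198 to 358 CPM, with NR2F2, also on the mesenchymal factor list, and MRC1 (82.3 ± 29.5 CPM) in the lead. Of its 9 tested IDs 4 lay above the median tested gene and 3 below, where 36.8% and 33.2% of all tested genes were. Those below were PROX1 at 7.34 CPM, mrc1b at 2.40 CPM and lyve1a at 1.13 CPM. Oligodendrocyte genes summed to 1384 to 3980 CPM, led by mbpa at 1170 ± 984 CPM and plp1b at 551 ± 237 CPM. Microglia genes summed to 1277 to 3282 CPM, led by apoeb at 1434 ± 803 CPM and cd74b at 250 ± 185 CPM. Of the 7 tested microglia IDs 3 lay above the median tested gene and 3 below, where 36.8% and 33.2% of all tested genes were. Those below were csf1ra at 1.76 CPM, spi1a at 3.27 CPM and SPI1 at 4.54 CPM. None of the 14 lists held an ID at 0 in all 4 libraries.

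**Figure D5:**
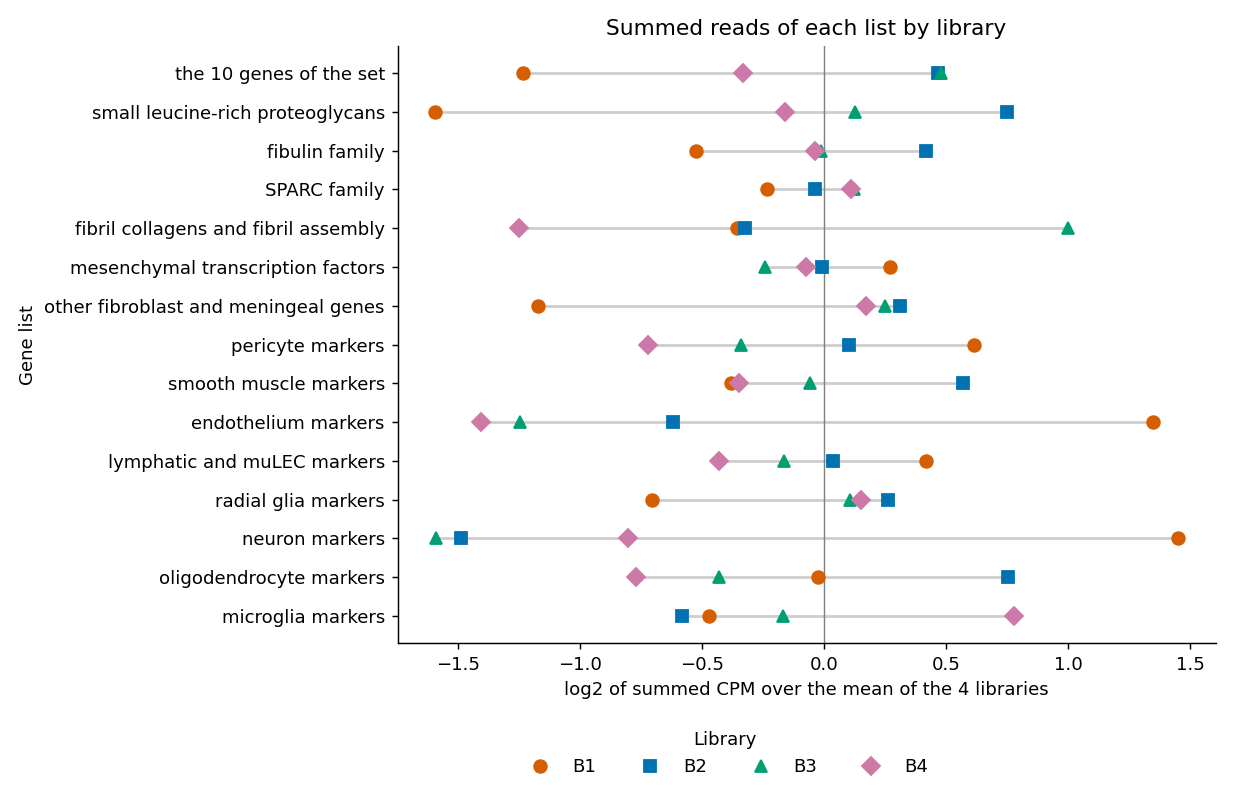
Summed CPM of the 10 genes and of each list in each library, as log2 of the sum over the mean of the 4 libraries, with 1 marker per library. B1 is the lowest marker for the 10 genes, the proteoglycan, fibulin and SPARC families, the other fibroblast and meningeal genes, smooth muscle and radial glia, and the highest for the mesenchymal factors and the pericyte, endothelium, lymphatic and neuron markers.

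Genes with the most similar pattern over the 4 libraries were found for each tested gene by the root mean square distance between log2 CPM centred on each gene's mean, among 9403 named genes with a mean of at least 10 CPM. With 4 libraries many genes lie close by, so the number nearer than the nearest other gene of the set is given. For DCN the nearest were OMG (distance 0.0385) and ZNF703 (0.0479), and 950 genes were nearer than twist1a (0.381), the nearest of the set. For LUM no gene was close, with UCMA at 1.16 and COL11A2 at 1.23, and 361 genes were nearer than DCN at 2.39. UCMA stood at 1.58 CPM in B1, 92.7 CPM in B2, 6.73 CPM in B3 and 0.450 CPM in B4.

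SPARC had AURKAIP1 (0.0148) and PDCD5 (0.0217) as nearest genes, and 348 genes were nearer than PRRX1 (ENSDARG00000042027), at 0.297. Seen from that copy, 31 genes were nearer than SPARC, led by LYPD6 (0.0868), and SPARC and that copy were the closest pair within the set by this count. The other copy, PRRX1 (ENSDARG00000033971), had cldc1 (0.105) and fbln5 (0.114) nearest, with 592 genes nearer than twist1b (0.442). For twist1b they were MDK (0.0466) and plk1 (0.0986), with 1044 nearer than PRRX1 (ENSDARG00000033971). For twist1a they were cntfr (0.0197) and NARF (0.0441), with 2085 nearer than DCN. FBLN1 had FUCA2 (0.0185) and si:ch211-201o1.1 (0.0208) nearest, and 5137 genes were nearer than twist1a, at 0.501.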

How the data were processed

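RNA of 4 libraries of 1 group was sequenced. The authors deposited raw read counts, whole numbers for each Ensembl gene, and YuGene scores between 0 and 1. The submitters' processing notes name bcl2fastq, R 3.2.2 and build GRCz10, and no source used here gives the aligner or counting tool. Columns match no sample number. Symbols were found for 26269 of 32105 IDs, and 14 of 206 list entries matched none. An entry ending in a or b without a match took the IDs of the capital symbol without that letter.

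Counts were scaled with TMM factors over all IDs in edgeR 4.0.16 (R 4.3.3), and genes reaching 1 CPM in 2 or more libraries were tested. With 1 mean per gene in the model, each level was set, two-sided, against the median fitted level by the quasi-likelihood F statistic, formed by hand because edgeR's function needs a second coefficient. The test was checked on simulated counts. DESeq2 1.42.0, limma 3.58.1 and the other alternatives are given at the end. Levels per transcript length had been intended, but no length was given, so CPM were used. Differences within a library use log2 CPM with a prior count of 2 and exact sign-flip tests. The genes and lists were chosen with earlier results of these data known. Named from each related list were the 3 tested IDs of highest and the 1 of lowest mean CPM, from each marker list the 2 highest, and the 2 genes nearest in pattern, of which 1 is not reported here. The genes twist2, twist3 and cdh5 were added after their values were seen. SOX2, PROX1, mrc1b, lyve1a, csf1ra, spi1a and SPI1 are also outside this naming rule and are given for their values. KERA is given as a neighbour of dcn and lum. Since the RNA was amplified and reads carry no molecular identifiers, floors cover counting error only.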

Additional observations from a re-analysis of the deposited data

Results flagged for a closer look

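In 4 of 36 sets of 4 library values examined, 1 library stood apart from the other 3 beyond Dixon's 95% critical value. For independent, normally spread values chance reaches it in about 1 set of 20. The sets here were CPM and summed CPM, and some lists share genes, so that rate need not hold for them. All 4 were library B1. TCF21 was 0.234 CPM there, with at most 1 read in each other library. The summed level of the other fibroblast and meningeal genes was low in B1, at 553 CPM. The summed levels of endothelium markers, at 326 CPM, and of neuron markers, at 1920 CPM, were high in B1. Of the endothelium sum, 240 CPM came from CLDN5 (ENSDARG00000043716) alone. Among the 9 tested endothelium IDs 3 were highest in B1 and 4 in B2, where 36.0% and 24.8% of all tested genes were highest.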

How the results depend on the processing

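No paired comparison between conditions was possible because there is a single group and the columns carry no sample number. Differences between genes were paired within libraries. The calls of DCN, FBLN1 and SPARC were kept under all 10 alternatives run, with log2 differences of 5.54 to 7.89, 1.42 to 3.76 and 4.73 to 7.07. The number of genes of the set above the median tested gene was 3 to 5 with 1 library left out (5 with all), and the number below 1 to 2, and 1 with a filter of 1 CPM in all 4 libraries. Over all genes, setting no filter on low counts gave 12310 of 28308 above (6365 of 17283 with it) and 11536 below (5743). In the related lists it gave 7 of 15 IDs above for small leucine-rich proteoglycans, 5 of 8 for fibulins and 7 of 8 for the SPARC family. For fibril collagens it gave 24 of 32 and for mesenchymal factors 16 of 28. LUM turned to -0.98 by limma-voom and ran from -1.12 (without B2) to 0.86 with 1 library left out, and twist1b turned to 0.55 with no filter. LUM minus twist1b ran from -0.41 (without B2) to 2.34, and 113 of 114 recomputed differences between genes kept their sign. With 1 library left out, the IDs above ran from 1 to 3 for small leucine-rich proteoglycans, 1 to 3 for fibulins, 12 to 15 for fibril collagens, 7 to 9 for mesenchymal factors and 8 to 11 for other fibroblast genes, and were 4 for the SPARC family; below, they ran from 1 to 2, 1 to 3, 4 to 6, 2 to 6 and 1 to 1, and were 1. TMM factors taken after the filter, chosen after seeing the data, kept all 8 calls of the set. DPT and TCF21 were too low to test. CPM per transcript length was not run.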

Other observations

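In the RefSeq gene table of assembly GRCz12tu, which is not the build of the files, dcn and lum are next to each other, followed by kera and epyc, all genes of small leucine-rich proteoglycans. The 4 neighbours had unlike read levels. KERA, of keratocan, had 4 reads in B1, 1 read in B2, 0 reads in B3 and 2 reads in B4. The gene epyc stood at 3.75 CPM in B1, 130 CPM in B2, 22.8 CPM in B3 and 6.03 CPM in B4, so B2 was its highest library, as it was for LUM, while DCN was highest in B3. In the same table fbln1 lies next to slc6a13. SLC6A13 stood at 48.6 CPM in B1, 157 CPM in B2, 222 CPM in B3 and 277 CPM in B4, a 5.70-fold range beside the 1.12-fold range of FBLN1.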
